A study of Homo sapiens with 20 samples.

Results

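PAX3, PAX7 and FOXO1 code for the transcription factors that are joined in fusion-positive rhabdomyosarcoma, a childhood tumor of muscle-like cells. The rows of the deposited expression table with these 3 gene symbols were taken, 3 of 44294 genes with values, and were followed across all 20 libraries. SJRH30, a human alveolar rhabdomyosarcoma line, carries the PAX3-FOXO1 fusion, and RD, a human embryonal line, carries no PAX fusion. Cells of each line were grown as xenograft tumors in NOD/SCID mice, which leave host stroma in the tumor. The 4 groups were SJRH30 TLE3 knockout, SJRH30 non-targeting control, RD TLE3 knockout and RD non-targeting control, with 5 libraries each of poly(A) RNA. The labels give no guide, clone, litter or mouse for any tumor, so p-values measure the spread between these libraries, which may be technical. With 1 line of each fusion state, a difference between SJRH30 and RD cannot be told apart from any other difference between the lines.

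PAX3 and PAX7 are closely related factors with a paired domain and a homeodomain, and both mark muscle progenitors. PAX3 acts in the dermomyotome and in cells that migrate to the limbs, while PAX7 marks the satellite cells that repair adult muscle. FOXO1 is a forkhead factor that insulin and AKT signalling keep out of the nucleus, and in muscle it switches on atrophy and fasting genes. In the PAX3-FOXO1 fusion, the DNA-binding domains of PAX3 are joined to the activation domain of FOXO1 and the PAX3 promoter drives the product. TLE3 codes for a Groucho corepressor, a family that paired-box factors can recruit.

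The FOXO1 sequence at the join is shown because the join sets which exons a fusion transcript adds to the counts of PAX3 and FOXO1, and the promoters are shown because that of PAX3 drives the fusion. In GRCh38 with GENCODE 29, PAX3 (ENSG00000135903.18) lies on the minus strand at chr2:222199888-222298996. PAX7 (ENSG00000009709.11) lies on the plus strand at chr1:18631006-18748866, and FOXO1 (ENSG00000150907.7) on the minus strand at chr13:40469953-40666597. The known fusion joins exon 7 of PAX3 to exon 2 of FOXO1. The first 30 bases of FOXO1 exon 2 (chr13:40560831-40560860, minus strand) come from the GENCODE 29 transcript, with the 10 bases next to the join in capitals.
FOXO1 exon 2 start: AATTCAATTCgtcataatctgtccctacac
Exons 1 to 7 hold 1554 of the 2258 bases of transcript PAX3-206 (68.8%), and exons 2 to 3 hold 4720 of the 5735 bases of FOXO1-201 (82.3%). Those exons make up 19.6% of the 7939 merged exon bases annotated for PAX3 over all its transcripts and 75.7% of the 6232 for FOXO1. The deposited counts per gene do not separate fusion reads on these exons from reads of intact PAX3 and FOXO1.

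The promoter windows run from 250 bases before to 50 bases after each gene start in RefSeq on GRCh38.p14, and all 3 genes were found there. Capitals mark matches on either strand to the E-box CANNTG, the site of MYOD1-like factors, and to the CCAAT box, with the letters CCAAT or their reverse complement. No marked matches overlap.
PAX3 promoter (chr2:222298949-222299248, minus strand): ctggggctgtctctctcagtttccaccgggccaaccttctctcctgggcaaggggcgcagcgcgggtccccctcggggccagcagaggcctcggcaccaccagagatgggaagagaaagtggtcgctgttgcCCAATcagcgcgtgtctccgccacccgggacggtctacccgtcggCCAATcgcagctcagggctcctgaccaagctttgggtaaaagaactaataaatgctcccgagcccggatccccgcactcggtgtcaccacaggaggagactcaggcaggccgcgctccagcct
PAX7 promoter (chr1:18630596-18630895, plus strand): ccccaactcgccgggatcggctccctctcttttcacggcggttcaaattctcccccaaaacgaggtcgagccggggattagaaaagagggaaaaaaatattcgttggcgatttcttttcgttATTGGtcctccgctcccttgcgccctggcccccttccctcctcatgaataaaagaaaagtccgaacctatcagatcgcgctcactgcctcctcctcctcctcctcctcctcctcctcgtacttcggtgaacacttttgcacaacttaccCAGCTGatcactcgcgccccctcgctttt
FOXO1 promoter (chr13:40666592-40666891, minus strand): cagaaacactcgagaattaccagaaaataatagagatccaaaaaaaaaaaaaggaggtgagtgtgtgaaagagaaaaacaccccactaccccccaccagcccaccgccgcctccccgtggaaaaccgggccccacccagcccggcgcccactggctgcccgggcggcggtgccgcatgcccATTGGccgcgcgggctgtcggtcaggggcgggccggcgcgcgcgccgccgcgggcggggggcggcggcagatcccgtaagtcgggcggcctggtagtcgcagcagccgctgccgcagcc
PAX3 held 2 CCAAT boxes, PAX7 held 1 and FOXO1 held 1, and 34.6% of 35116 human promoter windows held at least 1. This motif was chosen after the sequences were seen. PAX7 alone among them held an E-box, which 68.7% of all windows hold. The forkhead motif GTAAACA (3.4% of windows) and the paired-domain motif GTCACGC (2.5%) were not in these 3 windows on either strand. The windows had 64.7% GC in PAX3, 54.3% in PAX7 and 68.0% in FOXO1, against a median of 58.7%. They held 21, 21 and 33 CpG dinucleotides, against a median of 14.

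Total normalized counts were 26.05 M to 60.69 M in 18 libraries, with 37072 to 42412 genes above 0. RD TLE3 knockout 5 held 9.65 M reads and SJRH30 control 3 held 2.14 M, by the spacing of their low values, and mitochondrial transcripts made up 32.42% and 20.4% of them, against 2.34% to 16.91% elsewhere. Results are therefore also given without these shallow libraries. The fusion-positive markers went with the line labels, while the fusion-negative markers overlapped between the lines. The 5 fusion-positive markers (TFAP2B, CDH3, NOS1, OLIG2 and PIPOX) summed to 13345 to 25699 in SJRH30 TLE3 knockout, 8465 to 32900 in SJRH30 control, 872 to 2442 in RD TLE3 knockout and 880 to 1274 in RD control. The 3 fusion-negative markers (HMGA2, EGFR and FBN2) summed to 5706 to 7891, 3968 to 7328, 5315 to 13653 and 6496 to 11246 in the same order of groups. Of these 3, limma called 1 lower and 0 higher in SJRH30 control than in RD control, where 12.5% of all genes were lower. Of the 9 rhabdomyosarcoma markers MYF5 averaged 3.6, 1, 3 and 6 in the same order of groups, and it was the only one below 10 in every library of a group. TLE3 had 967, 806, 582, 637 and 809 in the SJRH30 libraries labelled knockout, against 426, 638, 185, 597 and 407 in SJRH30 control. It had 1465, 1357, 1032, 1547 and 424 in the RD libraries labelled knockout, against 1345, 1810, 2622, 1270 and 1809 in RD control. Its transcript was thus present in every library, and neither difference was called (limma adjusted p = 0.557 and 0.605), so the knockouts rest on the labels.

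PAX7 set the lines apart most. Its normalized counts were 60, 116, 75, 70 and 48 in SJRH30 TLE3 knockout and 104, 28, 196, 89 and 44 in SJRH30 control. In RD TLE3 knockout they were 1732, 1947, 1898, 3032 and 1426, and in RD control 1327, 1816, 2302, 1333 and 1620. Every SJRH30 library lay far below every RD library, and within each line the knockout and control ranges overlapped. The highest SJRH30 value, 196 in control 3, rests on 18 reads. The group means were 73.8 ± 25.75 in SJRH30 TLE3 knockout, 92.2 ± 65.9 in SJRH30 control, 2007 ± 608.1 in RD TLE3 knockout and 1680 ± 404.4 in RD control (SD, n = 5 each). The spread of PAX7 in SJRH30 control was large relative to its mean, and that of its other groups was smaller.

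PAX3 was higher in SJRH30, the line whose fusion uses the PAX3 promoter. Its normalized counts were 2245, 1982, 1396, 3439 and 2377 in SJRH30 TLE3 knockout and 1521, 1515, 2604, 1376 and 1898 in SJRH30 control. In RD TLE3 knockout they were 1158, 945, 747, 1076 and 429, and in RD control 704, 761, 768, 793 and 625. The lowest SJRH30 library lay above the highest RD library. The RD control libraries were close together, while the lowest RD value of all was in the shallow knockout library 5. Means were 2288 ± 745.6 in SJRH30 TLE3 knockout, 1783 ± 498.3 in SJRH30 control, 871 ± 291.8 in RD TLE3 knockout and 730.2 ± 67.22 in RD control (SD, n = 5 each).

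FOXO1 overlapped between all groups. Its normalized counts were 3729, 3546, 2458, 5256 and 3585 in SJRH30 TLE3 knockout and 2840, 2361, 4608, 2375 and 3258 in SJRH30 control. In RD TLE3 knockout they were 2621, 2408, 1997, 3514 and 2433, and in RD control 1931, 2515, 2875, 1660 and 1760. The order of the means was SJRH30 TLE3 knockout, SJRH30 control, RD TLE3 knockout and RD control, and neighbours in that order did not differ beyond their spread. The means were 3715 ± 1000 in SJRH30 TLE3 knockout, 3088 ± 927.1 in SJRH30 control, 2595 ± 562.2 in RD TLE3 knockout and 2148 ± 524.2 in RD control (SD, n = 5 each).

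**Figure D1:**
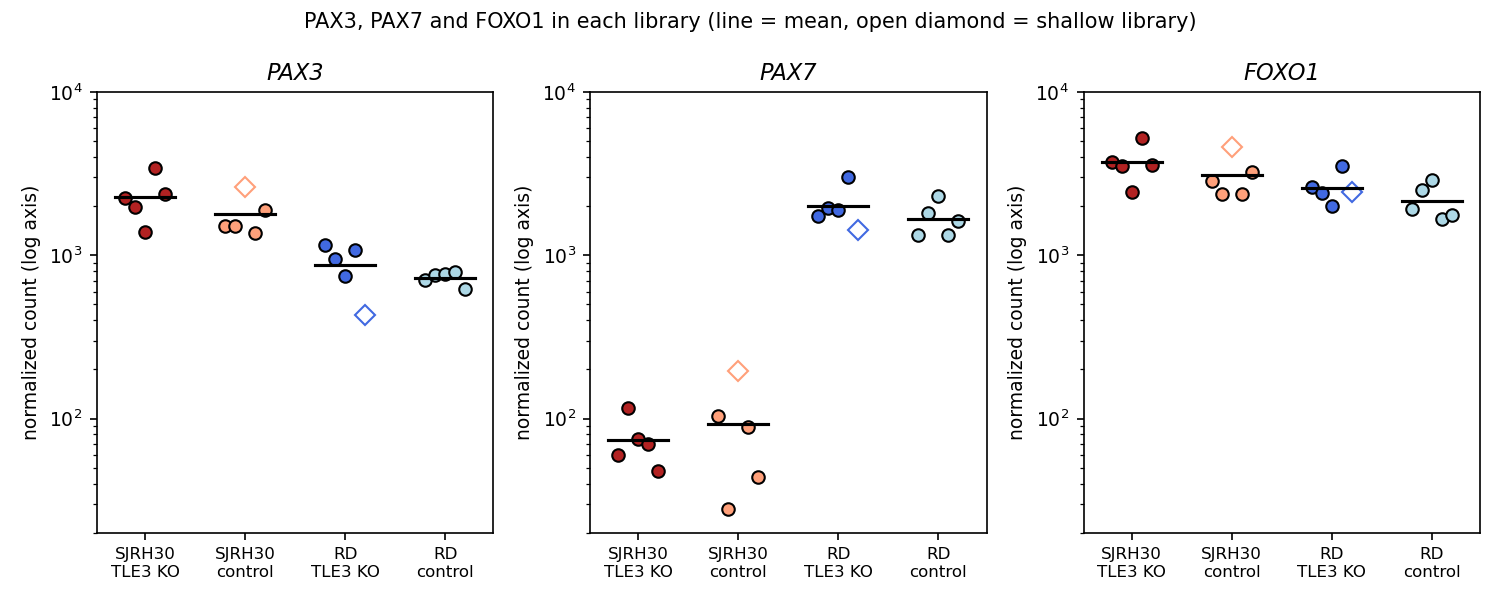
Normalized count (log axis) of PAX3, PAX7 and FOXO1 in each library, with a line at the mean of the 5 libraries of a group and open diamonds for both shallow libraries. PAX7 lies between 28 and 196 in SJRH30 and between 1327 and 3032 in RD, PAX3 is 1376 or more in every SJRH30 library, and the FOXO1 groups overlap.

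Between the control groups, 2 of the 3 genes were called by limma at a Benjamini-Hochberg adjusted p below 0.05, where 18.7% of all 44294 tested genes were called. PAX3 was higher in SJRH30 control than in RD control by 1.25 ± 0.30 on the log2 scale (standard error; 95% confidence interval 0.64 to 1.86; limma adjusted p = 0.00432), or 2.38-fold. PAX7 was lower (log2 difference -4.45 ± 0.40, interval -5.28 to -3.62, limma adjusted p = 3.82e-08), which is 0.0458 of the RD level. Only 0.341% of tested genes had a smaller p than PAX7, against 7.62% for PAX3. FOXO1 did not pass, with a log2 difference of 0.51 ± 0.28 (interval -0.06 to 1.08; limma adjusted p = 0.202). The median log2 difference of all tested genes was -0.45. Log2 fold changes are on the log2(value + 1) scale, which understates changes of low genes such as PAX7 in SJRH30.

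The same 2 genes were called between the knockout groups, where 16.9% of genes were called. PAX3 was higher in SJRH30 TLE3 knockout than in RD TLE3 knockout by 1.41 ± 0.30 (log2; limma adjusted p = 0.00152). The log2 difference was -4.76 ± 0.40 for PAX7 (limma adjusted p = 1.24e-08) and 0.50 ± 0.28 for FOXO1 (interval -0.07 to 1.07; limma adjusted p = 0.229). Without the shallow libraries PAX3 stood at 1.11 ± 0.23 between control groups and 1.18 ± 0.23 between knockout groups. PAX7 stood at -4.79 ± 0.33 and -4.87 ± 0.33, and FOXO1 was again not called (0.35 ± 0.24 and 0.48 ± 0.24). In those fits 40.4% and 26.8% of all genes were called. In the authors' deposited table, SJRH30 control over RD control had a fold of 2.131 for PAX3, 0.039 for PAX7 and 1.247 for FOXO1, with adjusted p of 0.000105, 7.66e-31 and 0.342.

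TLE3 knockout gave no call for PAX3, PAX7 or FOXO1 in either line. In SJRH30, 0 of 3 passed limma's test, where 0.00999% of 40028 genes did, and 0 of 3 had an unadjusted p below 0.05. The log2 difference of SJRH30 TLE3 knockout over SJRH30 control was 0.34 ± 0.33 for PAX3 (interval -0.38 to 1.05; limma adjusted p = 0.849), -0.07 ± 0.54 for PAX7 (interval -1.23 to 1.09; adjusted p = 0.988) and 0.27 ± 0.33 for FOXO1 (interval -0.45 to 0.99; adjusted p = 0.892). The intervals of PAX3 and PAX7 both hold a log2 difference of 1. Leaving out SJRH30 control 3, which has the highest control value of all 3 genes, turned the PAX7 difference to 0.27 ± 0.44 and moved PAX3 to 0.49 ± 0.29 and FOXO1 to 0.43 ± 0.28, with limma adjusted p of 0.764, 0.354 and 0.403. In that fit 0.486% of genes were called. Without SJRH30 TLE3 knockout 4, PAX3 stood at 0.18 ± 0.32 and FOXO1 at 0.14 ± 0.33 (limma adjusted p = 0.994 for both). That library had the highest PAX3 and FOXO1 values, and mitochondrial transcripts made up 16.91% of it. The authors' deposited table gave PAX3 a fold of 1.431 in this comparison, with p = 0.0426 and adjusted p = 0.201.

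In RD, 0 of 3 were called by limma, where 0.142% of 42917 genes were, and 0 of 3 had an unadjusted p below 0.05. RD TLE3 knockout over RD control gave log2 differences of 0.18 ± 0.26 for PAX3 (interval -0.38 to 0.74; limma adjusted p = 0.867), 0.24 ± 0.24 for PAX7 (interval -0.27 to 0.76; adjusted p = 0.794) and 0.28 ± 0.23 for FOXO1 (interval -0.20 to 0.76; adjusted p = 0.741). Without the shallow RD TLE3 knockout 5, PAX3 stood at 0.41 ± 0.19 with unadjusted p = 0.0492 and limma adjusted p = 0.515, in a fit that called 0.332% of genes. PAX7 then stood at 0.35 ± 0.23 (adjusted p = 0.658) and FOXO1 at 0.30 ± 0.23 (adjusted p = 0.715). The difference of the knockout effects, SJRH30 minus RD, was 0.16 ± 0.42 for PAX3, -0.31 ± 0.57 for PAX7 and -0.01 ± 0.39 for FOXO1 (limma adjusted p = 0.974, 0.966 and 0.998), and 0.00903% of genes were called there (0.197% without the shallow libraries). No difference between the lines in the effect of the knockout on these genes was detectable with 5 libraries a group.

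**Figure D2:**
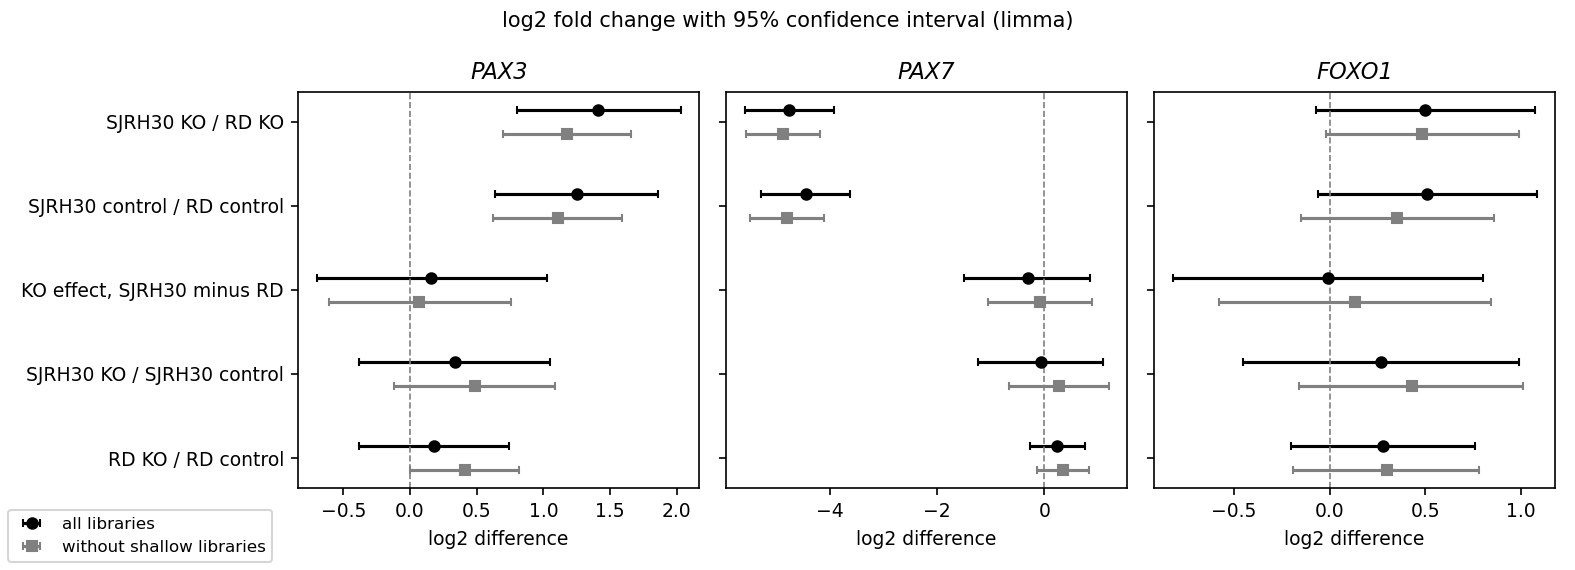
Log2 difference with its 95% confidence interval from limma for each gene in 5 comparisons, with all libraries (black circles) and without both shallow libraries (grey squares). The intervals exclude 0 for PAX3 and PAX7 between the lines, while with all libraries every knockout comparison and every FOXO1 comparison has an interval that includes 0.

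Markers of muscle, stromal and other cell types differed beside these comparisons, and their part in the results was not tested. The counts do not show whether these transcripts came from host cells or from the tumor cells themselves. In a bulk tumor, fewer cells of a type and less RNA per cell cannot be told apart. The 12 mature skeletal muscle markers, all present, summed to 1424 to 7230 in SJRH30 TLE3 knockout and 2493 to 135729 in SJRH30 control. In RD they summed to 1308 to 347394 in TLE3 knockout and 1211 to 451135 in control. RD control 1, 4 and 5, with sums of 451135, 220332 and 59562, had 1931, 1660 and 1760 normalized counts of FOXO1, while RD control 2 and 3, with 1211 and 1614, had 2515 and 2875. In the same order of libraries PAX7 had 1327, 1333 and 1620, against 1816 and 2302, a split like that of FOXO1. PAX3 had 704, 793 and 625, against 761 and 768. RD TLE3 knockout 2, with a muscle sum of 347394, had 2408 of FOXO1 and 1947 of PAX7, both inside the ranges of its group. The 10 fibroblast and pericyte markers summed to 14039 to 84073 in SJRH30 TLE3 knockout, 34235 to 108262 in SJRH30 control, 25534 to 191737 in RD TLE3 knockout and 92686 to 229745 in RD control. Of these 10, 5 were lower and 0 higher in SJRH30 between the controls, where 18.7% of all genes were called. Between the knockouts 5 were lower and 1 higher, where 16.9% were called. Without the shallow libraries 7 were lower between the controls (40.4% of all genes called), and 8 lower with 1 higher between the knockouts (26.8%). The 12 macrophage markers summed to 3219 to 8536 in SJRH30 TLE3 knockout and 1525 to 7678 in SJRH30 control. They summed to 2650 to 4364 in RD TLE3 knockout, against 5088 to 9114 in RD control. The 12 endothelial markers summed to 1399 to 3290 in SJRH30 TLE3 knockout, 1156 to 2822 in SJRH30 control, 2625 to 3351 in RD TLE3 knockout and 2560 to 4612 in RD control.

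Levels of different genes were compared per kilobase of length. Per kilobase of merged exons, FOXO1 stood at 596.1 in SJRH30 TLE3 knockout and 495.6 in SJRH30 control, PAX3 at 288.2 and 224.6, and PAX7 at 11.69 and 14.6 normalized counts. In RD TLE3 knockout and RD control FOXO1 stood at 416.3 and 344.7, PAX7 at 317.9 and 266.1, and PAX3 at 109.7 and 91.98. On this scale FOXO1 led in each group, followed by PAX3 in SJRH30 and by PAX7 in RD. The order of PAX3 depends on the length used, since its annotated exons add up to 7939 bases and its principal transcript has 2258. Per kilobase of the principal transcript, PAX3 was the most abundant in SJRH30 (1013 in TLE3 knockout and 789.5 in control, against 647.7 and 538.5 for FOXO1). In RD all 3 were then closer together, at 452.4 and 374.6 for FOXO1, 385.7 and 323.4 for PAX3 and 362.4 and 303.3 for PAX7.

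Ratios within a library do not depend on how libraries were scaled. The ratio of FOXO1 to PAX3 was 1.661, 1.789, 1.76, 1.528 and 1.508 in SJRH30 TLE3 knockout and 1.867, 1.558, 1.769, 1.725 and 1.716 in SJRH30 control. It was 2.262, 2.547, 2.671, 3.264 and 5.66 in RD TLE3 knockout and 2.74, 3.302, 3.74, 2.092 and 2.813 in RD control. SJRH30 libraries held a narrow range that lay wholly below the RD range. The mean log2 ratio was 0.79 ± 0.09 in SJRH30 control and 1.53 ± 0.32 in RD control (SD), a difference of -0.74 (exact permutation p = 0.00794, the smallest that 5 against 5 libraries allow; 0.0159 after adjustment over 8 ratio tests). Between the knockout groups the values were 0.72 ± 0.11 in SJRH30 and 1.63 ± 0.52 in RD, a difference of -0.91 with the same exact p and adjusted p. The ratio of 5.66, or 2.50 on the log2 scale, was that of the shallow RD TLE3 knockout 5, with 86.9 reads of PAX3. It raised the RD knockout mean and spread, since the other libraries of that group had log2 ratios of 1.18 to 1.71. TLE3 knockout moved this ratio by -0.07 in SJRH30 and by 0.10 in RD, neither past the test (exact permutation p = 0.333 and 0.77).

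The ratio of PAX3 to PAX7 counts, without correction for gene length, turned over between the lines. In SJRH30 it ran between 13.22 and 52.28, so PAX3 had more counts in every library. In RD it ran between 0.3013 and 0.6688, so PAX7 had more counts in every library. The lowest ratio of each line, 13.22 and 0.3013, was in its shallow library. The order of the 2 genes in RD depends on length, since per kilobase of the principal transcript the means of PAX3 lay above those of PAX7. The mean log2 ratio was 4.53 ± 0.95 in SJRH30 control and -1.17 ± 0.34 in RD control, and 4.94 ± 0.75 in SJRH30 TLE3 knockout and -1.24 ± 0.44 in RD TLE3 knockout (SD, n = 5 each). These are differences of 5.70 and 6.18, or 51.96-fold and 72.26-fold (exact permutation p = 0.00794 and adjusted p = 0.0159 in both). Knockout moved the ratio by 0.41 in SJRH30 (exact permutation p = 0.373) and by -0.06 in RD (0.794).

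PAX3 and FOXO1 varied together in SJRH30. Over its 10 libraries Pearson's r of their log2 values was 0.97 (permutation p = 2e-05, 0.00012 after adjustment over 6 relations) and Spearman's rho was 0.95 (adjusted p = 0.00072). It was 0.95 without the 2 libraries farthest from the PAX3 median, and 0.97 without the shallow library. SJRH30 control 2 and 4 and SJRH30 TLE3 knockout 3 were low in both genes. SJRH30 TLE3 knockout 4 was highest in both, followed by SJRH30 control 3. Mitochondrial transcripts made up 16.91% and 20.4% of these 2 highest libraries, against 2.34% to 6.22% in the other SJRH30 libraries. The part of this in the relation was not tested. In RD the same pair had r = 0.40 (permutation adjusted p = 0.38), 0.72 without the 2 farthest libraries and 0.67 without the shallow RD TLE3 knockout 5 (adjusted p = 0.1). The difference between the lines in this relation was not tested.

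In RD, PAX7 and FOXO1 passed the test by Pearson's r, and by rank only without the shallow library. Their r was 0.81 (permutation p = 0.0045, adjusted p = 0.013) with rho 0.72 (adjusted p = 0.071). Without the shallow library r was 0.88 (permutation adjusted p = 0.0047) and rho was 0.80 (adjusted p = 0.041). Without the 2 libraries farthest from the PAX7 median, RD control 1 and RD TLE3 knockout 4, r was 0.63. The 0.72 of PAX3 and FOXO1 left out other libraries, the shallow one among them. With the shallow library and then the 2 farthest left out, r was 0.80 for PAX7 with FOXO1 and 0.43 for PAX3 with FOXO1. The difference between these relations was not tested. RD TLE3 knockout 4 and RD control 3 were highest in both. The other relations did not pass, with r of 0.54 for PAX3 and PAX7 in RD, 0.16 for PAX3 and PAX7 in SJRH30 and 0.35 for PAX7 and FOXO1 in SJRH30 (permutation adjusted p = 0.22, 0.65 and 0.38). Many genes move together in these libraries, which share scaling, depth and tumor content. Over the 9 deep SJRH30 libraries, 979 of 18446 genes had r of at least 0.9 with PAX3, and 14 of them were closer to it than FOXO1. Seen from FOXO1, 1458 genes had r of at least 0.9 and 119 were closer to it than PAX3. In the 9 deep RD libraries, 734 genes had r of at least 0.9 with PAX7 and 1123 were closer to it than FOXO1 was, while 680 had r of at least 0.9 with FOXO1 and 970 were closer to it than PAX7.

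**Figure D3:**
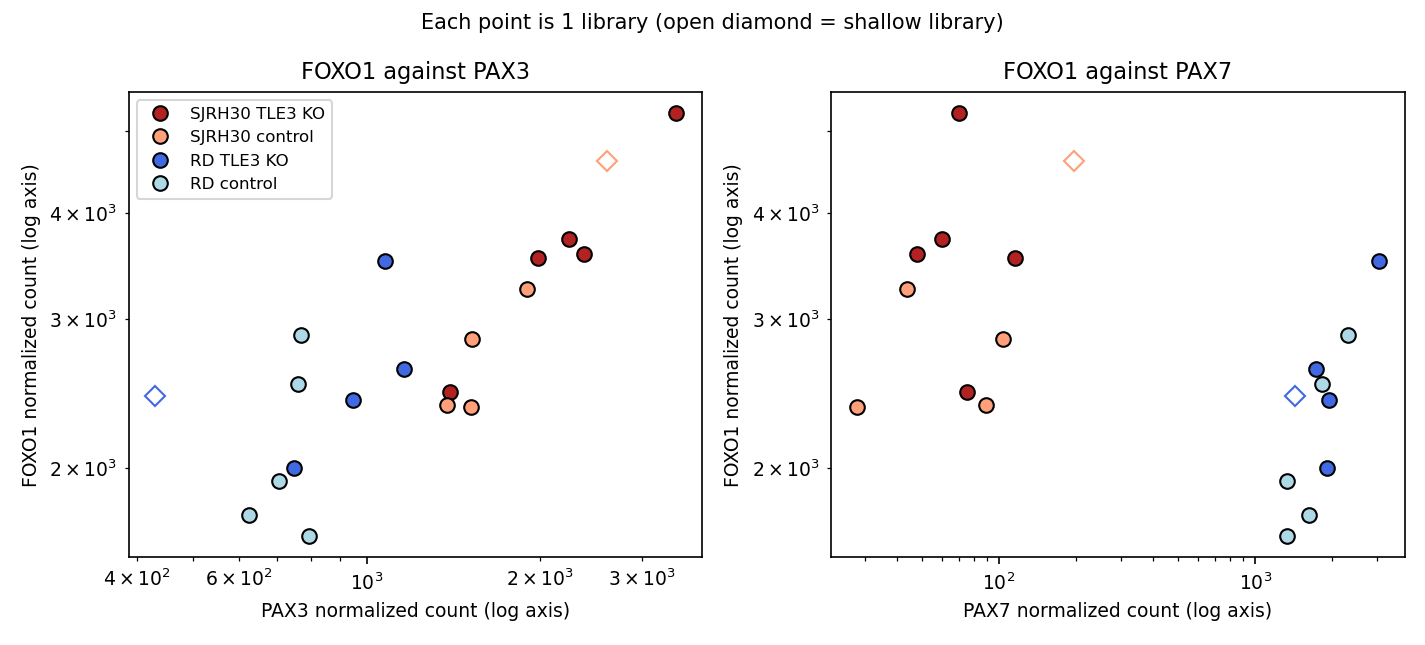
Normalized count of FOXO1 against PAX3 and against PAX7 (log axes), 1 point per library, with open diamonds for both shallow libraries. In SJRH30 the FOXO1 and PAX3 values lie near a line (r = 0.97), and in RD r is 0.40 for FOXO1 with PAX3 and 0.81 for FOXO1 with PAX7.

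Genes most like each of the 3 were ranked among 18447 genes with a mean of at least 100, by the lower of their r in the 9 deep libraries of each line. PAX3 was followed by TCF12, an E protein that pairs with MYOD1 (r = 0.92 in both lines), and then by HERC2P5, ST7, ZNF521 and MIPEP, all with r of at least 0.90 in each line. FOXO1 was followed by RAPGEF6, an exchange factor for Rap proteins, and INTS2, an Integrator subunit (r = 0.98 in both lines for each), then by RP3-368A4.5, N4BP2L2 and PDS5A, a cohesin regulator (lowest r = 0.97). PAX7, ranked in RD alone because it averages below 100 in SJRH30, was followed by SPPL3 (r = 0.99), RPAP2, SMYD4, VPS33A and CTC-429P9.2 (r = 0.98 each). In SJRH30 those 5 genes had r between -0.62 and 0.21 with PAX7.

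Other PAX genes differed between the lines too. Of the 7 besides PAX3 and PAX7, 1 was higher and 3 lower in SJRH30 control than in RD control, where 18.7% of all genes were called, with a median log2 difference of -0.95 beside -0.45 for all genes. PAX8, a thyroid and kidney factor, averaged 823.2 ± 110.9 in SJRH30 TLE3 knockout, 1043 ± 598.4 in SJRH30 control, 46 ± 11.14 in RD TLE3 knockout and 46 ± 27 in RD control (SD, n = 5 each). Its log2 difference between the controls was 4.26 ± 0.47 (limma adjusted p = 7.25e-07), close in size to that of PAX7 and opposite in sign. The kidney factor PAX2 (-1.53 ± 0.31, limma adjusted p = 0.00127), the eye factor PAX6 (-1.04 ± 0.33, 0.0288) and PAX9, which acts in the pharyngeal pouches (-1.41 ± 0.47, 0.0384), were lower in SJRH30 control. PAX5, a B-cell factor, was higher between the knockout groups (1.60 ± 0.37, limma adjusted p = 0.00371), and its control difference was 0.83 ± 0.37 (adjusted p = 0.12; 0.0369 without the shallow libraries). PAX1 and PAX4 stayed at group means of at most 14.2 normalized counts.

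Within the lines no PAX or FOXO gene was called with all libraries. PAX2 had 124 to 215 normalized counts in SJRH30 TLE3 knockout, against 218 to 478 in SJRH30 control. Its log2 difference was -1.17 ± 0.33 and not called (limma adjusted p = 0.439). Without SJRH30 control 3 it was -1.37 (adjusted p = 0.0408), where 0.486% of all genes were called. In the fit without both shallow libraries its difference from the RD effect was also called (-1.58, limma adjusted p = 0.042), where 0.197% of all genes were. Among the 4 FOXO genes, FOXO3, a relative of FOXO1 that also acts in muscle atrophy, was lower in SJRH30 control than in RD control (-1.06 ± 0.33, limma adjusted p = 0.0269). It averaged 3158 ± 1791 in SJRH30 TLE3 knockout, 1497 ± 397.9 in SJRH30 control, 3639 ± 1041 in RD TLE3 knockout and 3143 ± 931.1 in RD control (SD, n = 5 each). FOXO4 (-0.44 ± 0.51) and FOXO6 (0.69 ± 0.48) were not called between the controls, and without the shallow libraries FOXO6 was higher (1.12 ± 0.39, limma adjusted p = 0.0239).

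**Figure D4:**
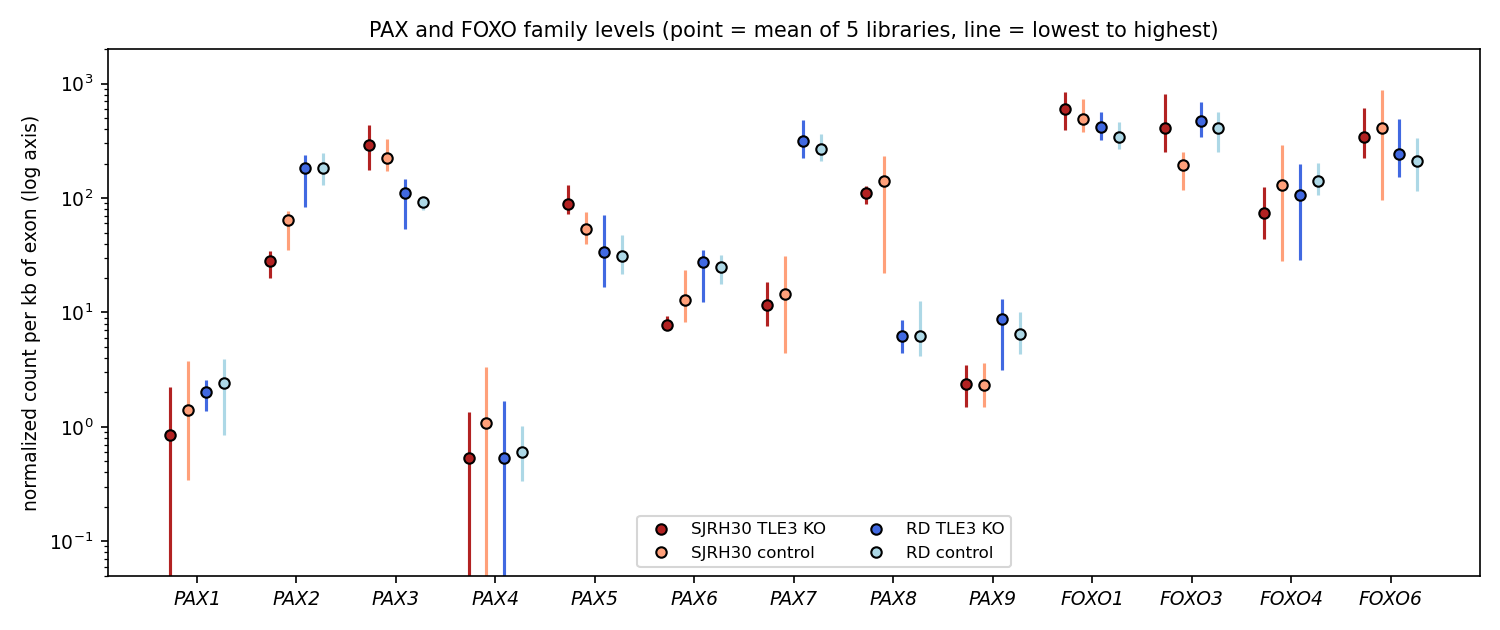
Normalized count per kilobase of merged exons (log axis) for the PAX and FOXO genes, with the mean of 5 libraries as a point and the lowest to highest library as a line. Lines that reach the lower edge include a library at 0. PAX7 and PAX8 are the PAX genes whose line groups lie farthest apart, in opposite directions.

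The genes beside the 3 loci were read from the same fits. CCDC140 overlaps the PAX3 start on the other strand, and reads of the 2 genes may not have been separated, because the labels do not say that the kit marks strand. It averaged 110 ± 17.64 in SJRH30 TLE3 knockout, 121.8 ± 73.47 in SJRH30 control, 33 ± 17.79 in RD TLE3 knockout and 24 ± 6.519 in RD control (SD, n = 5 each), and it was higher in SJRH30 in both comparisons (1.82 ± 0.57 between knockouts and 1.86 ± 0.57 between controls; limma adjusted p = 0.031 and 0.0265). EPHA4, an ephrin receptor gene 625686 bases from PAX3 on the lower-coordinate side, was lower in SJRH30 control than in RD control (-1.88 ± 0.38, limma adjusted p = 0.000987), while its difference between the knockout groups was -0.52 ± 0.38 and not called (adjusted p = 0.372). In RD the EPHA4 log2 difference of knockout over control was -1.04 ± 0.25 (limma adjusted p = 0.16), and -1.19 without RD TLE3 knockout 5 (adjusted p = 0.0267). None of the 6 genes flanking PAX7 was called between the controls with all libraries (18.7% of all genes were), while without the shallow libraries 2 were higher and 3 lower (40.4% of all genes were called). Of those 6, ALDH4A1, a proline breakdown enzyme (1.90 ± 0.55, limma adjusted p = 0.0189), and ACTL8 (-1.62 ± 0.56, adjusted p = 0.0496) were called between the knockouts with all libraries.

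At FOXO1, MRPS31 and SLC25A15, the nearest neighbours on the side of its start, were called between the lines, while FOXO1 was not. The difference between their changes and that of FOXO1 was not tested. MRPS31, a mitochondrial ribosome gene 62538 bases away, averaged 1144 ± 265 in SJRH30 TLE3 knockout, 1278 ± 372.2 in SJRH30 control, 318.6 ± 57.9 in RD TLE3 knockout and 316.2 ± 63.64 in RD control (SD, n = 5 each). Its log2 difference between the controls was 1.99 ± 0.26 (limma adjusted p = 7.89e-06). SLC25A15, the mitochondrial ornithine carrier next to it, had 316.6 ± 67.46 in SJRH30 TLE3 knockout, 344.4 ± 86.12 in SJRH30 control, 62.6 ± 18.04 in RD TLE3 knockout and 55.4 ± 10.11 in RD control, a control difference of 2.60 ± 0.31 (limma adjusted p = 1.68e-06). ELF1, an ETS factor gene and the third on that side, was not called between the controls (0.60 ± 0.28, limma adjusted p = 0.147) and was higher between the knockouts (1.38 ± 0.28, adjusted p = 0.00132). On the other side COG6, a Golgi complex gene, was not called (0.23 ± 0.31, limma adjusted p = 0.631) and LHFPL6, a tetraspan membrane protein gene, was lower in SJRH30 control (-1.77 ± 0.29, adjusted p = 0.00011).

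A window of 2 Mb on each side was chosen after values at these loci were seen. Of 13 protein-coding genes tested on the start side of FOXO1, 7 were higher and 0 lower in SJRH30 control than in RD control (median log2 difference 0.84), where 6.23% of all genes were higher. The shares of all genes include noncoding genes and genes with low counts, so they are not shares of protein-coding genes alone. Between the knockout groups 11 of the 13 were higher and 0 lower (median 1.38), where 8.01% were higher. Without the shallow libraries 8 were higher and 1 lower between controls, and 10 higher and 0 lower between knockouts. In those fits 40.4% and 26.8% of all genes were called, and 7997 and 5579 of 44263 were higher. The called genes in both comparisons included KBTBD6 (1.46 ± 0.36 between controls and 2.54 ± 0.36 between knockouts), KBTBD7, WBP4, MTRF1 and VWA8. On the far side of FOXO1, 2 of 6 were higher and 1 lower between controls (median 0.57), and 3 were higher and 1 lower between knockouts (median 1.25). Around PAX7, 15 of 49 genes were higher and 6 lower between knockouts, 14 of the 15 among the 35 on its higher-coordinate side (median 1.09). Between controls 7 of the 49 were higher and 7 lower, where 18.7% of all genes were called. Without the shallow libraries these were 20 and 13, where 40.4% of all genes were called. Around PAX3, 2 of 12 were higher and 2 lower between knockouts, where 16.9% of all genes were called. Between controls 1 of the 12 was higher and 3 lower (18.7% of all genes), or 4 and 4 without the shallow libraries (40.4%). More higher than lower calls were thus seen around PAX7 as well as FOXO1 between the knockouts, where 3546 of all 44294 genes were higher and 3958 lower. Around PAX3 this held only without the shallow libraries, with 5 higher and 2 lower, where 26.8% of all genes were called. The loci were not tested against each other. The largest PAX7-side differences between controls were those of RNF186, a ubiquitin ligase gene (9.75 ± 0.65), PLA2G5, a secreted phospholipase gene (5.15 ± 0.37), and MFAP2, a microfibril gene (-4.67 ± 0.51), all more than 1 Mb from PAX7. DNA copy number and the rearranged chromosomes were not measured here, and their part was not tested.

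**Figure D5:**
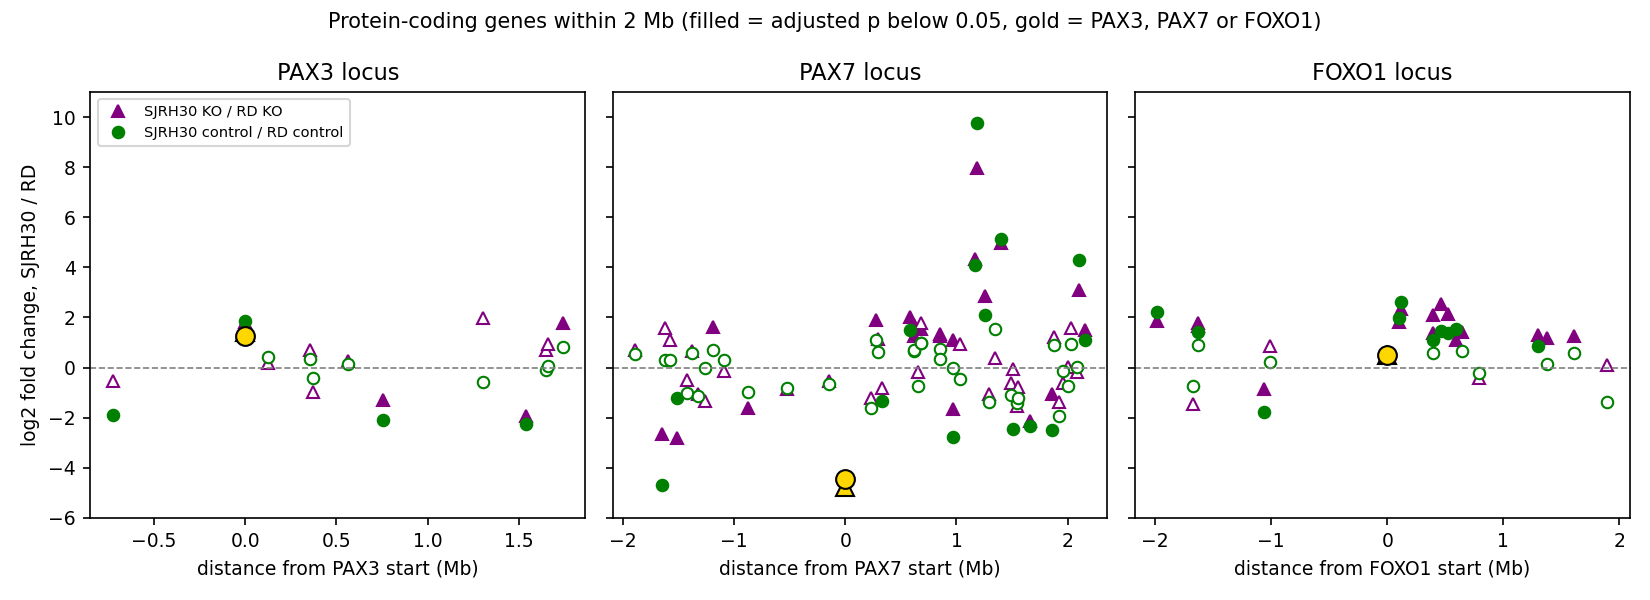
Log2 fold change of SJRH30 over RD for protein-coding genes within 2 Mb of each locus against the distance of their start from that of PAX3, PAX7 or FOXO1 (Mb), for the knockout groups (triangles) and the control groups (circles). Filled points passed limma at an adjusted p below 0.05, and gold points are PAX3, PAX7 and FOXO1. On the positive side of FOXO1 11 of 13 genes are higher between the knockouts and 7 of 13 between the controls, and on its negative side 3 of 6 and 2 of 6.

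Partners and targets of these factors were counted between the control groups, where 6.23% of all genes were higher and 12.5% lower. Of 16 partners and upstream progenitor factors, 3 were higher and 2 lower in SJRH30 control than in RD control (median log2 difference -0.20, beside -0.45 for all genes), and 5 and 4 without the shallow libraries, where 40.4% of all genes were called. EYA1, a coactivator of homeobox factors that act beside PAX3, averaged 2866 ± 1102 in SJRH30 TLE3 knockout, 2058 ± 557.1 in SJRH30 control, 340.8 ± 16.98 in RD TLE3 knockout and 258.4 ± 21.14 in RD control (SD, n = 5 each; control difference 2.94 ± 0.26, limma adjusted p = 3.13e-08). EYA2 (2.28 ± 0.37) and PAXBP1, which links PAX3 and PAX7 to histone methylation in mice (1.25 ± 0.35), were higher as well, and MEOX2 (-1.66 ± 0.42) and EYA4 (-1.22 ± 0.32) were lower (limma adjusted p = 9.8e-05, 0.014, 0.00738 and 0.00874). Of 11 targets of PAX3 or PAX7 in normal development, 5 were higher and 3 lower, with a median of -1.06, below that of all genes. Without the shallow libraries 5 were higher and 4 lower. The somite factor gene DMRT2 averaged 336.2 ± 127.2 in SJRH30 TLE3 knockout, 453 ± 82.57 in SJRH30 control, 25.2 ± 15.16 in RD TLE3 knockout and 30.8 ± 23.74 in RD control (control difference 4.12 ± 0.47, limma adjusted p = 1.02e-06). MET, the receptor that limb muscle precursors need to migrate, was higher (2.11 ± 0.28, limma adjusted p = 1.06e-05), as were MYOD1, FGFR4 and LBX1. The growth factor antagonist gene SPRY1 (-2.10 ± 0.31), ID3 (-2.16 ± 0.55) and RET (-1.59 ± 0.49) were lower (limma adjusted p = 2.72e-05, 0.00813 and 0.0254).

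Of 26 listed PAX3-FOXO1 target genes 18 were higher and 1 lower in SJRH30 control than in RD control, where 6.23% of all genes were higher and 12.5% lower. Their median log2 difference was 1.95 beside -0.45 for all genes, and TFAP2B stood at 7.20 ± 0.51 (limma adjusted p = 1.35e-09). Without the shallow libraries 20 of the 26 were higher and 3 lower, where 40.4% of all genes were called. The fusion list shares MYOD1, FGFR4 and MET with the developmental list, and TFAP2B, CDH3, NOS1, OLIG2 and PIPOX with the markers of the fusion. Of 9 regulators of the fusion protein, CDK4 was higher (2.22 ± 0.66, limma adjusted p = 0.0217) and EP300, an acetyltransferase gene, lower (-0.81 ± 0.27, adjusted p = 0.0372), where 18.7% of all genes were called. Without the shallow libraries 3 were higher and 2 lower, where 40.4% of all genes were called.

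Genes of the FOXO1 pathway were called in both directions between the controls, where 6.23% of all genes were higher and 12.5% lower. Of 21 upstream regulators, 3 were higher and 5 lower in SJRH30 control (median -0.32, beside -0.45 for all genes). SGK1, a kinase that phosphorylates FOXO factors, was lowest (-2.38 ± 0.32, limma adjusted p = 8.91e-06), and AKT2 (1.64 ± 0.53, adjusted p = 0.035) and MTOR (1.21 ± 0.29, adjusted p = 0.00462) were higher. Of 29 FOXO target genes 4 were higher and 7 lower (median -0.36). Without the shallow libraries 5 upstream regulators were higher and 7 lower, and 6 target genes higher and 7 lower, where 40.4% of all genes were called. The atrophy ligase gene FBXO32 had 74.8 ± 8.408 in SJRH30 TLE3 knockout, 59 ± 20.26 in SJRH30 control, 309.6 ± 147.4 in RD TLE3 knockout and 430.6 ± 335.5 in RD control (SD, n = 5 each; control difference -2.63 ± 0.42, limma adjusted p = 7.8e-05). PDK4, a brake on glucose oxidation, was lower too (-2.40 ± 0.42, adjusted p = 0.000268), while BNIP3, a mitophagy gene, was higher (1.53 ± 0.31, adjusted p = 0.000954). FOXO1 itself was not called in that comparison.

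Within the lines few listed genes differed with TLE3 knockout. With all libraries limma called 1 of the 117 family, partner, target and regulator genes tested in RD and 0 of 116 in SJRH30, where 0.142% and 0.00999% of all genes were called. In each line 13 had an unadjusted p below 0.05, where 8.42% of all genes did in RD and 8.59% in SJRH30. Without the shallow library of each line 18 of 117 did in RD (9.65% of all genes) and 32 of 116 in SJRH30 (19.6%), and limma called 1 in each. The gene called in RD with all libraries was KLF2, an endothelial flow-response factor on the FOXO target list, which averaged 171.8 ± 77.32 in RD TLE3 knockout, against 833.2 ± 192.9 in RD control (SD, n = 5 each; log2 difference -2.40, limma adjusted p = 0.0147). The 26 fusion targets had a median log2 difference of 0.36 in SJRH30, beside 0.17 for all genes, and 0 of them passed.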

How the data were processed

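Poly(A) RNA of xenograft tumors was sequenced in 20 libraries, and groups were taken from the sample titles. The submitters' processing notes name FastQC, fastp 0.20.1, STAR 2.7, featureCounts, edgeR and GRCh38.p7, with no settings. They mention no step against mouse reads. What the authors deposited per gene is a score, a normalized count scaled between libraries and rounded, so no count model was run. Per the file headers the authors' tables also give a fold (linear ratio), a log2 fold change, a p-value and an adjusted p, which are printed only where named.

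Values were put on a log2(value + 1) scale, not rescaled, and tested in limma 3.58.1 (R 4.3.3) with its intensity-dependent prior variance. A gene needed 1 or more in 5 or more libraries of a fit. Tests were 2-sided, with Benjamini-Hochberg adjustment over all of them and calls below 0.05. Knockout comparisons used the 10 libraries of a line, and the others all 20. Ratios had an exact permutation test (scipy 1.17.1), and correlations 100000 permutations, or all pairings below 10 libraries. 43815 of 44294 gene IDs matched GENCODE 29. No library copied another (at most 0.52% identical values over 18571 genes).

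Named genes are PAX3, PAX7, FOXO1, their families, flanking genes and TLE3. Further named are up to 5 genes a direction of each list, by adjusted p among those called, and the 5 most alike, except 1 gene that is not reported here. The genes, lists, tests and shallow libraries were chosen with earlier results of these data known. Alternatives were another pseudocount, 2 other filters, rescaling, each library left out, both shallow libraries left out, a replicate block and other sample sets.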

Additional observations from a re-analysis of the deposited data

How the results depend on the processing

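PAX3 stayed higher and PAX7 lower in SJRH30 than in RD, and FOXO1 uncalled, under every alternative run for both line comparisons, and no knockout effect on the 3 genes was called under any. Directions that turned were small. PAX7 in SJRH30 TLE3 knockout over control was -0.07, and 0.27 without the shallow library (-0.42 to 0.27 with single libraries left out). The difference of knockout effects turned to 0.13 for FOXO1 without the shallow libraries. With single libraries left out it ran from -0.14 to 0.15 for FOXO1, from -0.07 to 0.32 for PAX3 and from -0.66 to 0.03 for PAX7. In RD TLE3 knockout over control without the shallow library the log2 ratio of FOXO1 to PAX3 turned to -0.11 (-0.11 to 0.22 with single libraries left out), and that of PAX3 to PAX7 to 0.06 (-0.23 to 0.06). The correlation of PAX3 with PAX7 in SJRH30 became -0.07. The cause was not tested.

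Counts of genes called moved more. RD TLE3 knockout over control gave 61, and 142 without the shallow library, 15 in a fit of all 20 libraries and 12 to 142 with single libraries left out (12 without RD control 2, 142 without RD TLE3 knockout 5). SJRH30 TLE3 knockout over control gave 4, and 2 with a pseudocount of 10, 2 with no filter, 193 without the shallow library, 89 in a fit of all 20 libraries and 0 to 193 with single libraries left out (193 without SJRH30 control 3, and 0 without any 1 other). The difference of effects gave 4, and 8 with a pseudocount of 10, 87 without the shallow libraries and 1 to 31 with single libraries left out. The control lines gave 8289, 17900 without the shallow libraries and 6173 to 15533 with single libraries left out. The knockout lines gave 7504, 11858 and 5628 to 12600. The highest of each was without SJRH30 control 3.

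With the replicate number as a block, 9 genes were called in RD, 0 in SJRH30 and 1 for the difference of effects, and no call on the 3 genes changed. The numbers did not pair the samples, since deviations of same-numbered libraries had correlations of -0.66 to -0.31 in RD and -0.44 to 0.26 in SJRH30.

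Rescaling to a common median shifted log2 differences by -0.10 in SJRH30 TLE3 knockout over control and by 0.11 between the controls. Depth limits PAX7 in SJRH30 most, with 18 reads in control 3.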
